A study of Rattus norvegicus with 14 samples.

Results

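Ngfr and S100b are genes whose products are used to recognise Schwann cells, the glia of peripheral nerve. Their transcription start sites (TSSs) were taken as every position assigned to either gene symbol in a table of 4993 candidate TSSs, and 3 of the 4993 qualified, 1 for Ngfr and 2 for S100b. The table holds Tn5Prime libraries, in which a template-switching oligonucleotide marks the 5′ ends of RNAs and the reads starting at each TSS are counted and scaled to library size (RPM, reads per 1000000 mapped reads). A TSS was a candidate if it was found in rat sciatic nerve and lay within 1 kilobase of a peak of H3K4me3, a histone mark of active promoters, that overlapped a SOX10 ChIP-Seq peak in nerve, so every position in the table was chosen near SOX10 binding.

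Levels were measured in 14 libraries in 5 groups. Sciatic nerve came from adult rats aged 6 to 9 months (2 libraries). Primary rat Schwann cells, from a commercial source, had been maintained with 10 nM neuregulin and 2 µM forskolin, and were then kept in medium with 5% serum and either vehicle (control, 3 libraries) or 250 µM CPT-cAMP, a cell-permeable analogue of cyclic AMP, for 3 days (cAMP, 3 libraries), each library from its own cell population. S16 cells, which were grown in medium with 10% serum, are an immortalised rat Schwann cell line that expresses myelin genes. The parental line gave 2 libraries from separate RNA samples, so its spread is that between samples of 1 line. The main tests pool it with the spread of the other groups fitted, among them the ΔSOX10 clones described next. The ΔSOX10 group was 4 clonal S16 lines (1-1, 1-2, 2-1 and 2-2), in which CRISPR/Cas9 cutting in the first coding exon of Sox10 had left only frameshift alleles. The clones were made with 2 guide RNAs, so some share a guide, and which clone came from which guide is not given in the sources used here. Primary cell libraries were sequenced on NovaSeq and all others on another instrument, a HiSeq, so the instrument and the culture model cannot be told apart, and primary cells are set beside the other groups without a test.

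Ngfr encodes p75NTR, a receptor of the TNF receptor family that binds neurotrophins and their precursors. Immature and nonmyelinating Schwann cells carry it, myelinating cells lose it, and it returns after nerve injury. S100b encodes a calcium-binding protein of the S100 family that is kept in both myelinating and nonmyelinating Schwann cells. SOX10 is a transcription factor of the Schwann cell lineage, and raised cyclic AMP is used in culture to start the myelinating programme.

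The Ngfr TSS was an 18 bp cluster on the minus strand of chromosome 10 (rn5, 83216622 to 83216639). It lay inside an H3K4me3 peak (83214077 to 83216850) and 23 bp from the nearest SOX10 peak (83216400 to 83216599). Both S100b TSSs were on the minus strand of chromosome 20. The main one was a 122 bp cluster (15296374 to 15296495), and the other, 91 bp further upstream, was an 11 bp cluster (15296586 to 15296596). A single SOX10 peak (15296400 to 15296799) and a single H3K4me3 peak (15295558 to 15297026) overlapped both.

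Because the SOX10 peak covers the start of S100b, the 250 bases before its RefSeq start are shown (GRCr8, chr20:12381082-12381331, minus strand, 5′ to 3′). Capitals mark the letters CCAAT and the SOX core letters ACAAT on either strand, which read ATTGG and ATTGT when they lie on the other strand.

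S100b promoter: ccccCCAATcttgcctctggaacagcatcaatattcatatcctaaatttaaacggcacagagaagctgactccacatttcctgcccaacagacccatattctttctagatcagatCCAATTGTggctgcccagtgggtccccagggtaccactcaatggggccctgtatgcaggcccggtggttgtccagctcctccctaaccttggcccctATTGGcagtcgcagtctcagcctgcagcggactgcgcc

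CCAAT occurred 3 times, and ACAAT occurred 1 time, overlapping the middle CCAAT. Of 33469 RefSeq promoters of the same length, 34.0% held CCAAT and 30.0% held ACAAT, searched on both strands. The other SOX core letters ACAAA (43.6% of promoters) and ACAAG (37.9%), the TATA box letters TATAAA (12.9%) and the half-site letters TGACG of a cyclic AMP response element (18.2%) had no match in this window. GRCr8 is not the build of the TSS table, so these letters could not be placed relative to the measured TSSs. For Ngfr no sequence is shown.

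Total depth was 29895599 to 79940274 reads a library, and 28.7% to 37.0% of them fell in candidate TSSs. A count of 0 allows up to 3 reads, 0.0375 to 0.10 RPM. The groups were checked with Schwann cell markers. Erbb3, a neuregulin receptor gene of these cells, was at 9.60 to 11.7 RPM in nerve, 41.6 to 56.4 in control, 31.8 to 57.1 in cAMP, 21.6 to 24.1 in parental S16 and at most 0.0255 in ΔSOX10 cells, and Sox10 and S100b are given below. The fibroblast markers with a candidate TSS, Col1a1 and Pdgfra (2 of 7), summed to 98.7 to 114 RPM in nerve, 790 to 892 in control, 366 to 459 in cAMP, 2201 to 2771 in parental and 2910 to 5171 in ΔSOX10 cells. Nearly all of each sum was Col1a1, since the group mean of Pdgfra was highest in nerve, at 3.11 RPM. The perineurial marker Itgb4 was at 47.2 to 50.7 RPM in nerve, at most 5.09 in primary cells and at 0 in S16 cells, and Pdgfrb, a pericyte marker, was at 27.1 to 51.2 in nerve, 0.330 to 1.91 in control and 22.4 to 26.9 in cAMP. The leukocyte marker Csf1r was at 1.07 to 4.82 RPM in nerve and at most 0.966 in the cultures. No endothelial or adipocyte marker had a candidate TSS. The part of other cell types in the results below was not tested.

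Sox10, the gene cut in the ΔSOX10 lines, had 90.7 and 77.5 RPM at its TSS in the 2 parental libraries. In clones 1-1, 1-2, 2-1 and 2-2 it had 1, 1, 0 and 4 reads, a difference of −6.35 ± 0.37 (log2, SE, limma adjusted p = 1.57e-05). Reads at a TSS do not cover the edited coding sequence, so this is a check of the transcript level and not of the edit. Nerve libraries held 48.6 and 42.4 RPM of Sox10. In primary cells Sox10 was at 136, 149 and 140 RPM in control and 123, 117 and 137 in cAMP (−0.17 on the log2 scale, adjusted p = 0.353).

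Ngfr was highest in control primary cells and lowest in ΔSOX10 clones. In the nerve libraries it was at 4.52 and 11.1 RPM, from 135 and 426 reads. The control libraries held 2694, 2587 and 2583 RPM and the cAMP libraries 746, 760 and 877. Parental S16 cells were at 792 and 780 RPM. Clones 1-1, 1-2, 2-1 and 2-2 were at 0.28, 1.45, 2.10 and 2.19 RPM, which is about 11, 57, 77 and 77 reads. The cAMP and parental ranges overlapped, and no other neighbours in this order did. By level, Ngfr was 10th of the 4993 candidate TSSs in control cells, 86th in cAMP cells and 86th in parental S16 cells, but 2324th in nerve and 3276th in ΔSOX10 cells.

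The main S100b TSS followed another order, in which nerve stood beside the primary cells. It was at 1869 and 1520 RPM in nerve. Control cells gave 1915, 1811 and 1911 RPM and cAMP cells 1635, 1584 and 1520. Nerve therefore spanned values found in both primary groups, while control and cAMP did not overlap. Parental S16 cells were at 162 and 151 RPM, 10.1-fold below cAMP cells by group means, and the 4 clones at 7.11, 6.23, 15.3 and 8.44 RPM. Among the candidate TSSs it ranked 13th in nerve, 23rd in control, 27th in cAMP, 386th in parental S16 and 2127th in ΔSOX10 cells.

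The upstream S100b TSS was weak in every group. It was at 9.47 and 23.4 RPM in nerve. Control cells had 3.13, 0.581 and 7.54 RPM, and cAMP cells 13.9, 16.7 and 14.2. In parental S16 cells it was at 0.475 and 1.37 RPM (21 and 53 reads), and the 4 clones had 0 reads. The cAMP values overlapped those of nerve and lay above all 3 control values, and the parental and control ranges overlapped.

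**Figure D1:**
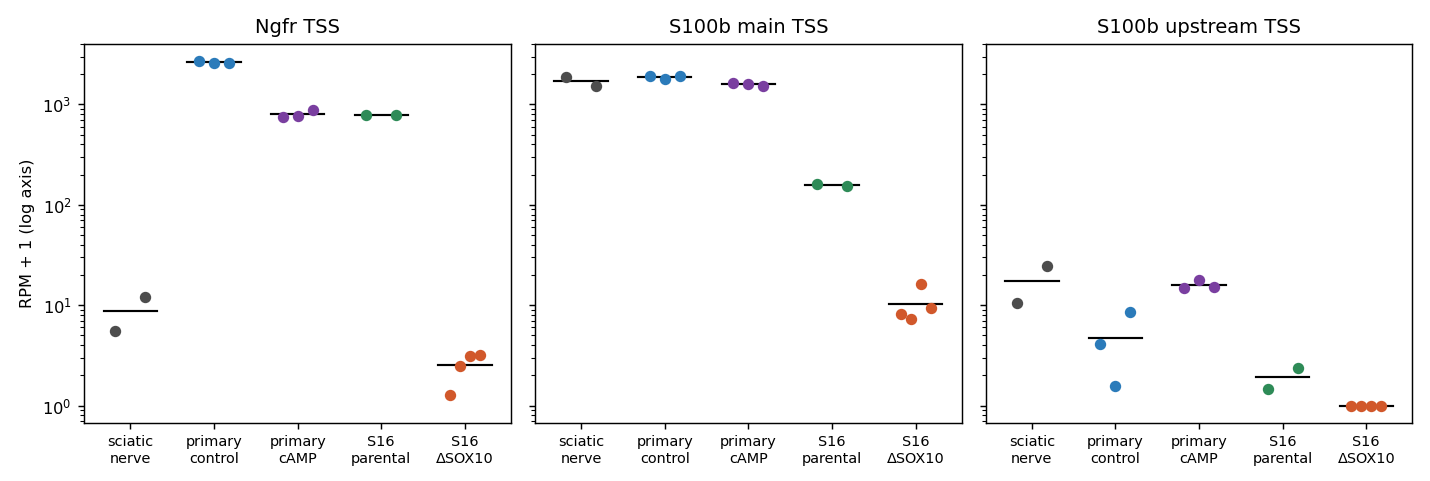
RPM + 1 (log axis) of the Ngfr TSS, the main S100b TSS and the upstream S100b TSS in each of the 14 libraries, by group, with a point per library and a bar at the group mean. Ngfr lies at 4.52 and 11.1 RPM in nerve and at 2583 to 2694 RPM in control primary cells, whereas the main S100b TSS lies at 1520 to 1869 RPM in nerve and 1811 to 1915 RPM in control cells.

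The first comparison asked how the markers change when primary Schwann cells are driven towards the myelinating state with cAMP. Ngfr fell by 69.7%, from 2622 ± 63.0 to 794 ± 71.6 RPM (SD, n = 3 each), which is 3.30-fold. The main S100b TSS fell by 15.9%, from 1879 ± 58.8 to 1580 ± 57.9 RPM, or 1.19-fold. The upstream S100b TSS rose 3.98-fold, from 3.75 ± 3.52 to 14.9 ± 1.57 RPM, a size that depends on the control libraries (log2 difference 2.63 without control replicate 3 and 1.42 without control replicate 2, against 2.05). In limma, fitted to log2(RPM + 1) over 4119 TSSs with Benjamini-Hochberg adjustment, Ngfr changed by −1.72 ± 0.06 (log2, SE, adjusted p = 4.29e-15), the main S100b TSS by −0.25 ± 0.06 (adjusted p = 0.00184) and the upstream one by 2.05 ± 0.53 (adjusted p = 0.0058).

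All 3 member TSSs were called, 2 lower and 1 higher, where 11% of all TSSs tested were called lower and 12.9% higher. Control and cAMP values did not overlap at any of the 3, which was so for 17.4% of TSSs in the lower direction and 19.2% in the higher. Ngfr had the 100th largest fall of 4119 TSSs, the main S100b TSS the 1352nd, and the upstream one the 143rd largest rise. The call of the main S100b TSS was lost with edgeR's exact test on reads recovered from the RPM values (−0.24, adjusted p = 0.0575) and when all 14 libraries shared one estimate of the spread (−0.25, adjusted p = 0.565). The upstream call was lost with edgeR's quasi-likelihood test (2.00, adjusted p = 0.0745) and without cAMP replicate 2 (1.97, adjusted p = 0.0605), and with a pseudocount of 5 RPM its rise was 1.26. In the same libraries the fibroblast sum was lower with cAMP, at 366 to 459 against 790 to 892 RPM, and Pdgfrb was higher. That sum was nearly all Col1a1, since Pdgfra was at 0 RPM in control and 0.113 ± 0.195 in cAMP cells. The part of other cell types in these changes was not tested.

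The second comparison set the ΔSOX10 clones against parental S16 cells. The clones had been transfected, selected with puromycin and grown from single cells, and the parental line was unmodified. These steps and the loss of SOX10 therefore cannot be told apart. Ngfr fell by 99.8%, from 786 ± 8.49 RPM (n = 2) to 1.51 ± 0.883 (n = 4), or 522-fold, and the highest clone was at 2.19 RPM. The main S100b TSS fell by 94.1%, from 156 ± 7.29 to 9.26 ± 4.11 RPM, or 16.9-fold. It was still detected in every clone, from 245 to 559 reads. By limma over 3875 TSSs, Ngfr changed by −8.38 ± 0.41 (log2, SE, adjusted p = 7.73e-06) and the main S100b TSS by −4.01 ± 0.35 (adjusted p = 0.00015). These were the 3rd and the 50th largest falls. Of all TSSs tested, 6.55% were called lower and 1.65% higher. Clone and parental values did not overlap for 21.7% of TSSs in the lower direction and 7.69% in the higher. The median difference of all TSSs was −0.18, and −0.05 after median-ratio or TMM rescaling, a shift far below both falls.

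The upstream S100b TSS was too low in S16 cells to be tested. Its 4 clones had 0 reads against 0.924 ± 0.636 RPM in parental cells, which puts it at least 10.8-fold lower against a floor of 3 reads in a single library (at most 0.0855 RPM in the clones).

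At both genes every clone lay below both parental libraries. Clone 1-1 had about 11 Ngfr reads, against 57 in clone 1-2 and 77 in both clones 2-1 and 2-2, while the main S100b TSS was highest in clone 2-1 (559 reads) and at 245 to 296 reads in the other clones. Leaving out either parental library or any clone moved Ngfr between −8.53 and −8.09 and the main S100b TSS between −4.26 and −3.87.

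Both genes fell in both comparisons, which use separate libraries. Of 3741 TSSs tested in both, 440 were called lower with cAMP, 245 lower in ΔSOX10 cells and 28 lower in both, so these 28 are 6.36% of the former and 11.4% of the latter. Over all 3741 TSSs 6.55% were lower in ΔSOX10 cells and 11.8% lower with cAMP, close to these shares, so the 28 serve only to place the members. A larger group of 133 TSSs was higher with cAMP and lower in ΔSOX10 cells. Among the 28, Ngfr had the highest level in control cells, the second largest fall in ΔSOX10 cells after Cd81, a membrane tetraspanin, and the 6th largest fall with cAMP. The main S100b TSS had the 4th highest level, the 5th largest fall in ΔSOX10 cells and the smallest fall with cAMP.

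**Figure D2:**
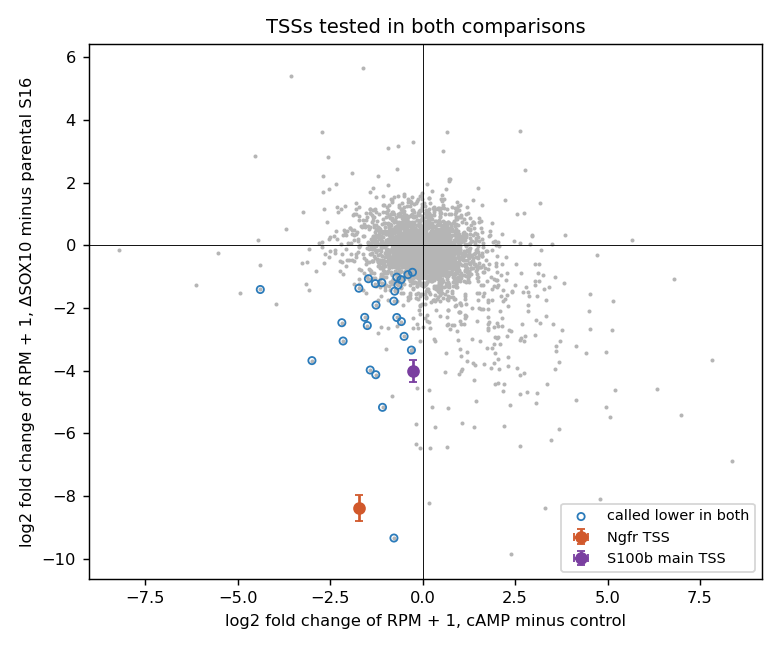
Difference in log2(RPM + 1) with cAMP (x axis) and in ΔSOX10 against parental S16 cells (y axis) for the 3741 TSSs tested in both, with the 28 called lower in both as blue circles and Ngfr (orange) and the main S100b TSS (purple) with bars of 1 SE. Ngfr lies at −1.72 and −8.38, low on the y axis beside nearly all TSSs, and S100b at −0.25 and −4.01.

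The third comparison set parental S16 cells against sciatic nerve, both sequenced on the same instrument. Its spread was estimated with the ΔSOX10 clones also in the fit. Here the markers moved in opposite directions. Ngfr was 101-fold higher in S16 cells (786 ± 8.49 RPM) than in nerve (7.81 ± 4.66 RPM, n = 2 each), a difference of 6.59 ± 0.54 (log2, SE, limma adjusted p = 5.65e-05) and the largest rise of 4726 TSSs (the second largest of the 4993 candidates with a pseudocount of 0.1 RPM). The main S100b TSS was 10.8-fold lower in S16 cells (156 ± 7.29 against 1695 ± 247 RPM), by −3.42 ± 0.36 (adjusted p = 0.00015). The upstream S100b TSS was lower as well, at 0.924 ± 0.636 against 16.4 ± 9.87 RPM (−3.10 ± 0.45, adjusted p = 0.000729, and −1.78 with a pseudocount of 5 RPM or −4.86 by DESeq2). Of all TSSs tested, 23.7% were called higher and 22.7% lower, or 1121 and 1074 TSSs. The values of the groups did not overlap for 37.4% in the higher direction and 35.8% in the lower. Rescaling shifted that split to 648 and 1549 TSSs by median ratio and to 809 and 1330 by TMM (713 and 688 by edgeR, 638 and 995 by DESeq2), with the median difference of all TSSs moving from −0.01 to −0.62 and −0.41. Ngfr and both S100b TSSs kept their direction and their calls under both. Nerve is a tissue of several cell types and S16 a single line, and in such bulk libraries fewer cells of a type and less RNA per cell cannot be told apart.

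The primary cells showed the same ordering of Ngfr against nerve. Control cells were at 336 times and cAMP cells at 102 times the nerve mean of Ngfr. On the log2(RPM + 1) scale these differences were 8.33 and 6.60, each the largest of the 4993 TSSs, where the median TSS differed by 0.11 between control cells and nerve. In ΔSOX10 cells the difference of Ngfr from nerve was −1.79. For the main S100b TSS the differences from nerve were 0.16 in control, −0.09 in cAMP and −7.44 in ΔSOX10 cells.

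The balance of the genes within a library was given as the log2 ratio of Ngfr to the sum of the S100b TSSs, each with 1 RPM added. Counts of 5′ ends do not scale with transcript length. Whether the TSSs of both genes are captured equally well was not tested, so the ratios are of RPM and not of transcript abundance. Nerve libraries were at −8.41 and −7.00, with 139 to 416 times more S100b than Ngfr. Control libraries were at 0.490, 0.514 and 0.429, with Ngfr 1.35 to 1.43 times S100b. With cAMP the ratios were −1.14, −1.07 and −0.81, so that S100b was 1.75 to 2.21 times Ngfr in all 3. Treatment turned the balance from Ngfr to S100b without overlap, by −1.49, with an exact permutation p of 0.1 (two-sided), the smallest that 3 libraries against 3 allow. Parental S16 cells were the most weighted to Ngfr, at 2.28 and 2.35 (4.89 to 5.11 times S100b). The 4 clones lay at −2.66, −1.56, −2.39 and −1.56, all on the side of S100b. The difference of −4.36 had an exact permutation p of 0.133 (two-sided), the smallest possible with 4 libraries against 2.

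**Figure D3:**
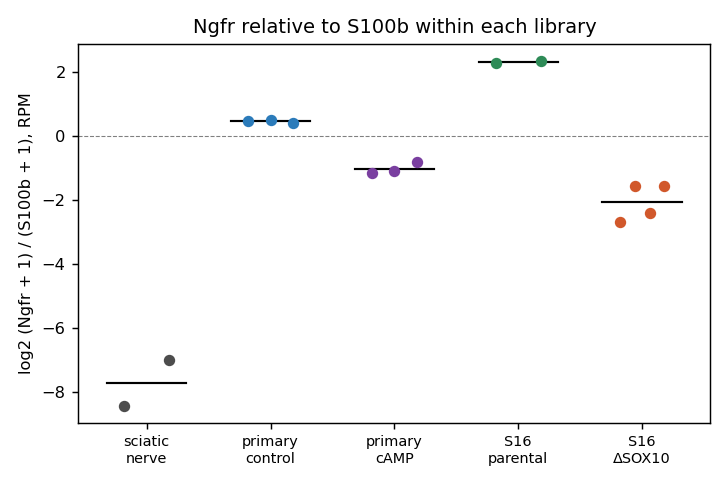
Log2 ratio of Ngfr to S100b (RPM + 1, S100b TSSs summed) in each library, with a point per library and a bar at the group mean. Control cells (0.478 ± 0.0437) and parental S16 cells (2.28 and 2.35) lie above 0, and cAMP cells (−1.01 ± 0.178), ΔSOX10 clones (−2.04 ± 0.568) and nerve (−8.41 and −7.00) lie below it.

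The share of S100b starts at the upstream TSS was higher with cAMP. The upstream TSS gave 0.163%, 0.0321% and 0.393% of S100b reads in the 3 control libraries and 0.840%, 1.04% and 0.924% in the 3 cAMP libraries. It gave 0.504% and 1.52% in nerve and 0.293% and 0.900% in parental S16 cells. In the clones it had 0 of 279, 245, 559 and 296 reads, which allows shares of up to 1.08%, 1.22%, 0.537% and 1.01%. Summed over the 4 clones it had 0 of 1379 reads, which allows a share of up to 0.218%, below both parental shares. The control and cAMP ranges did not overlap. Taken singly, 3 of the 4 clones have limits above both parental shares. The mean share rose by 0.740 percentage points with cAMP (0.196 ± 0.183% to 0.936 ± 0.103%), with an exact permutation p of 0.1 (two-sided), the smallest possible.

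In limma's diffSplice, which tests whether TSSs of a gene differ in their change, the upstream TSS moved by 2.30 (log2) relative to the main one and S100b had a Simes adjusted p of 0.0497, where 9.57% of 460 genes with several TSSs were called. That call sits at the threshold. It was lost without control replicate 1 (adjusted p = 0.131), without cAMP replicate 1, 2 or 3 (0.143, 0.149 and 0.133) and with a pseudocount of 0.1 RPM (0.135). It held without control replicate 2 (0.0366) or 3 (0.00608) and with a pseudocount of 5 RPM (0.00322).

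**Figure D4:**
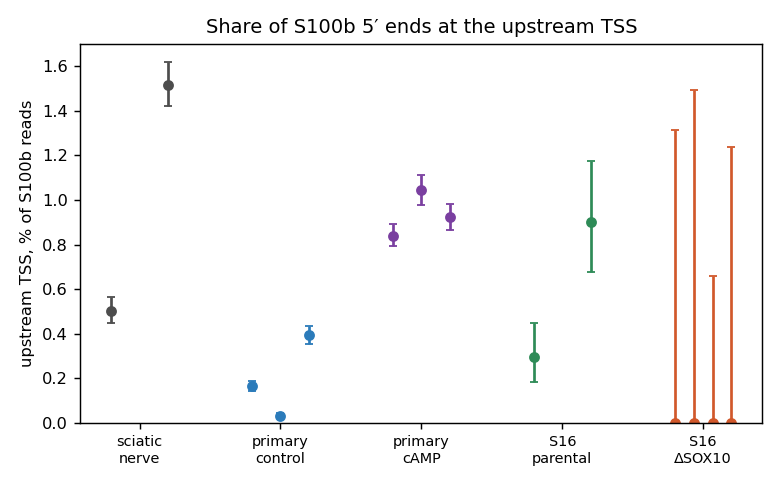
Share of S100b reads (%) that started at the upstream TSS in each library, with exact (Clopper-Pearson) 95% intervals, which cover counting error only. The cAMP libraries lie at 0.840% to 1.04%, above the control libraries at 0.0321% to 0.393%, and the 4 clones lie at 0 with intervals that reach 0.658% to 1.49%.

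Genes that work with p75NTR were given by a list of 63, covering its ligands, co-receptors, proteases, adaptors and effectors, of which 15 had a candidate TSS. The ligand genes Bdnf and Ntf3, the co-receptor gene Sort1, the protease gene Adam10 and the γ-secretase gene Ncstn were not among them. With cAMP, 5 of the 15 were lower, 1 was higher and 9 were not called, where 11% of all TSSs were lower and 12.9% higher, with a median of −0.39 where all TSSs had 0.02. Jun, a transcription factor of the repair and immature Schwann cell, fell from 541 ± 65.5 to 60.8 ± 6.21 RPM (−3.13 ± 0.12, log2, SE). Aph1b, a subunit of γ-secretase, the protease that cleaves p75NTR in the membrane, fell from 408 ± 23.0 to 157 ± 16.2 RPM (−1.38 ± 0.10), and Aph1a, an alternative form of that subunit, from 76.5 ± 11.9 to 48.4 ± 8.77 (−0.65 ± 0.19, adjusted p = 0.0131). Traf6, an adaptor that joins p75NTR to NF-κB signalling, fell from 25.5 ± 3.07 to 12.3 ± 0.257 RPM, and Arhgdia, a GDP-dissociation inhibitor of small GTPases, from 657 ± 30.1 to 501 ± 48.4. Psen2, a catalytic subunit of γ-secretase, was at 26.9 ± 10.8 and 15.4 ± 5.57 RPM (adjusted p = 0.133), so 2 of the 3 γ-secretase TSSs were lower. Adam17, a sheddase of p75NTR, was at 4.44 ± 1.36 and 5.96 ± 3.37 RPM (adjusted p = 0.817). The gene that rose was Mag, a myelin protein that signals through p75NTR in neurons, from 0.00509 ± 0.00882 to 30.6 ± 7.49 RPM.

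In ΔSOX10 cells 1 of 14 TSSs tested was called, near the share over all TSSs (6.55% lower, 1.65% higher). This was Mag, lower at 0.00635 ± 0.0127 RPM against 34.6 ± 1.41 (−5.14 ± 0.37). The median of the list was −0.45, where all TSSs had −0.18. Values for the genes that had fallen with cAMP were −0.54 for Jun (adjusted p = 0.328), 0.15 for Aph1b (0.756), −0.06 for Aph1a (0.908), 0.02 for Traf6 (0.983) and −0.32 for Arhgdia (0.296). In parental S16 cells against nerve 5 of 15 were higher and 10 were not called, beside 23.7% higher and 22.7% lower over all TSSs, and the 5 included Aph1a, Jun and Arhgdia. After median-ratio rescaling 3 were higher and 2 were lower.

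The S100 list held 34 genes of S100 proteins, annexins and other partners, of which 13 had a candidate TSS. With cAMP 4 were higher, 3 lower and 6 not called, where 12.9% of all TSSs were higher and 11% lower, with a median of −0.19. S100a4, a small calcium-binding protein linked to cell motility, fell from 4242 ± 143 to 1291 ± 45.4 RPM (−1.71 ± 0.05), a change close in size to that of Ngfr. S100a10, the partner of annexin A2, fell from 2606 ± 81.0 to 1605 ± 71.0 RPM (−0.70 ± 0.05), and Anxa5, a phosphatidylserine-binding annexin, from 642 ± 40.1 to 379 ± 8.49 (−0.76 ± 0.08). S100a16 was at 7.40 ± 1.96 and 13.9 ± 5.16 RPM (adjusted p = 0.169). Ndrg2, which the list holds as an S100b partner, rose from 6.31 ± 0.540 to 95.3 ± 6.74 RPM (3.72 ± 0.25).

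In ΔSOX10 cells 3 of 12 were lower (6.55% over all TSSs) and 9 were not called, with a median of −0.29. Ndrg2 fell from 9.10 ± 2.83 to 0.278 ± 0.556 RPM, Anxa5 from 681 ± 90.5 to 249 ± 48.0 and S100a10 from 2820 ± 84.9 to 1408 ± 227 (−1.02 ± 0.19, adjusted p = 0.00998). S100a4 was at 2955 ± 262 and 1326 ± 549 RPM (−1.24 ± 0.32, adjusted p = 0.0507). S100a16 was at 38.7 and 24.8 RPM in nerve and at 0 in all 6 S16 libraries. In parental S16 cells against nerve 8 of 13 were higher, 2 lower and 3 not called. Over all TSSs 23.7% were higher and 22.7% lower. After median-ratio rescaling 6 of the list were higher and 3 lower. The group means of S100a4 and S100a10 were at 957 RPM or more in all 5 groups, whereas that of the main S100b TSS ran from 1879 RPM in control to 9.26 in ΔSOX10 cells.

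**Figure D5:**
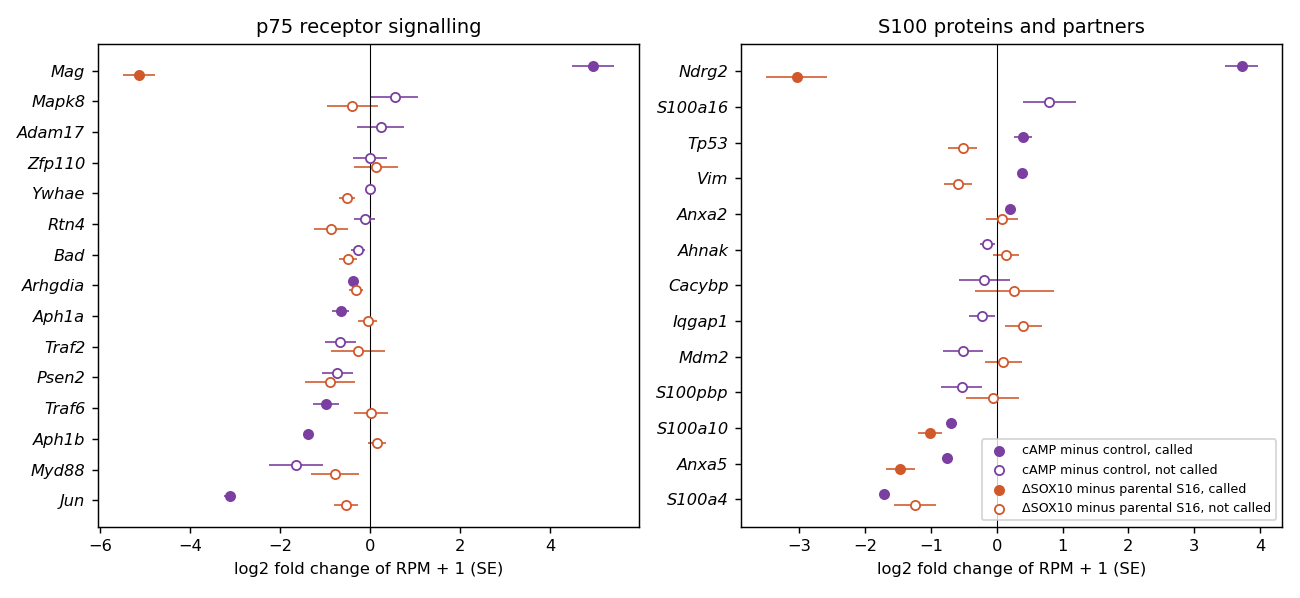
Difference in log2(RPM + 1) with cAMP and in ΔSOX10 cells for each tested TSS of the p75NTR signalling list and of the S100 list, with bars of 1 SE, filled where called at an adjusted p under 0.05 and open where not. With cAMP 6 of 15 p75NTR genes and 7 of 13 S100 genes are filled, and in ΔSOX10 cells 1 of 14 and 3 of 12.

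Other Schwann cell genes gave the setting in which the markers moved. Of 26 genes of immature, nonmyelinating or repair cells, the state in which p75NTR is found, 7 had a candidate TSS. With cAMP 3 were lower (Snai2, Jun and Tnfrsf12a), 2 higher and 2 not called, where 11% of all TSSs were lower and 12.9% higher. The median was −0.37. Snai2, a transcription factor of neural crest cells, fell from 58.5 ± 18.1 to 2.54 ± 2.82 RPM, and Tnfrsf12a, another TNF family receptor, from 585 ± 30.2 to 151 ± 11.1. Id2, an inhibitor of basic helix-loop-helix factors that the list holds as an immature gene, rose from 62.1 ± 5.45 to 571 ± 43.5 RPM. In ΔSOX10 cells Snai2 was lower (−1.41 ± 0.25), Id2 was higher (1.36 ± 0.31, adjusted p = 0.0308) and 5 were not called, with a median of −0.54. Over all TSSs 6.55% were lower and 1.65% higher. In parental S16 cells against nerve 6 of 7 were higher and 1 was not called, with a median of 3.22. Over all TSSs 23.7% were higher and 22.7% lower.

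Of 23 myelin and promyelin genes 15 had a candidate TSS. With cAMP 11 of 14 tested were higher and 1, Cnp, was lower, where 12.9% of all TSSs were higher and 11% lower. The median was 2.94 (3.17 with 1 gene at 0 in control cells set at its bound). With the TSS highest in the comparison for each gene, 12 were higher and 0 lower, so the fall of Cnp belongs to its TSS highest in nerve. Examples of the rises were Mal, a myelin proteolipid (8.36 ± 0.29), Bcas1 (6.99 ± 0.36), Pllp, a plasma membrane proteolipid (6.42 ± 0.37), and Egr2, a transcription factor of myelination (5.11 ± 0.46). In ΔSOX10 cells 8 of 12 were lower and 4 were not called, where 6.55% of all TSSs were lower and 1.65% higher. The median was −4.91. Among those that fell were Pmp22, a protein of compact myelin (−8.37 ± 0.47), Mal (−6.89 ± 0.45) and Mbp, myelin basic protein (−6.41 ± 0.37). Ngfr thus had a fall close to that of Pmp22 on this scale in ΔSOX10 cells. In cAMP cells Ngfr fell where 11 of these genes rose. In parental S16 cells against nerve 9 of 15 were lower, 2 higher and 4 not called. Over all TSSs 22.7% were lower and 23.7% higher. After median-ratio rescaling 10 of the list were lower.

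Of 15 genes listed as Schwann cell lineage genes 8 had a candidate TSS. With cAMP Cryab, a small heat shock protein, was lower (−4.45 ± 0.08), as was Lgi4, a secreted protein needed for myelination (−1.42 ± 0.46). Metrn was higher (1.76 ± 0.59) and 5 were not called, with a median of −0.11. Over all TSSs 11% were lower and 12.9% higher. The Lgi4 TSS highest in nerve was at 9.31 ± 1.09 RPM in control and 2.90 ± 0.809 in cAMP cells. With the TSS highest in the comparison for each gene, 1 was lower and 1 higher. The paper lists Lgi4 among genes with a TSS raised by cAMP. In ΔSOX10 cells 7 of 8 were lower, where 6.55% of all TSSs were lower and 1.65% higher. The median was −3.52 (−5.46 with 2 genes at 0 in the clones set at their bounds). The 7 that fell included Gas7 (−8.23 ± 0.35), Sox10 itself, the neuregulin receptor gene Erbb3 (−4.56 ± 0.36) and Lgi4 (−3.98 ± 0.36). The paper names all 8 genes among those with TSSs lower in these same ΔSOX10 libraries, and Sox10 is the gene cut. The count of 7 is therefore no separate evidence. In parental S16 cells against nerve 1 of 8 was higher, 2 were lower and 5 were not called. Over all TSSs 23.7% were higher and 22.7% lower. The calls of these lists with cAMP and in ΔSOX10 cells were the same after median-ratio and TMM rescaling.

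The genes most like each member were found by Pearson's r of log2(RPM + 1) over the 14 libraries, among 2472 genes with a TSS at a mean of at least 5 RPM. The 14 points share 5 groups, so r is a description. For Ngfr they were Insc (r = 0.960), Cmtm5 (0.958), Abhd4 (0.952), Cnp (0.949) and Ctc1 (0.947). Insc was at 6.42 RPM in nerve, 75.7 in control, 90.2 in cAMP, 34.7 in parental S16 and 0 in ΔSOX10 cells. It thus had the low nerve level of Ngfr without the lower level in cAMP cells.

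For the main S100b TSS the closest were Arpc1a (0.993), Plekhb1 (0.977), Art3 (0.976), another TSS of Cmtm5 (0.970) and Slc22a17 (0.968). Full-length Arpc1a protein is a subunit of the actin-nucleating Arp2/3 complex. The Arpc1a TSS was at 360 RPM in nerve, 539.5 in control, 254 in cAMP, 35.6 in parental S16 and 0.00713 in ΔSOX10 cells. The paper describes an intronic Arpc1a TSS that falls with differentiation and with loss of SOX10. It considers the predicted short product unlikely to assemble into that complex. Whether the TSS listed here is that one was not tested. For the upstream S100b TSS they were Ywhaq (0.939), Adi1 (0.933), Sft2d1 (0.925), Syt3 (0.925) and Kdm6b (0.915). Between the members r was 0.73 for Ngfr and the main S100b TSS, 0.38 for Ngfr and the upstream one, and 0.82 for the S100b TSSs. By Spearman's rank correlation 0, 1 and 2 of the 5 genes stayed for Ngfr, the main and the upstream S100b TSS, and with a pseudocount of 0.1 RPM 4, 4 and 2 did.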

How the data were processed

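Tn5Prime libraries of 14 samples in 5 groups, as the labels give them, were analysed at 4993 candidate TSSs. The authors trimmed reads with cutadapt 1.14, mapped them to rn5 with STAR 2.5.2a, processed alignments with SAMtools 1.9, called TSSs in sciatic nerve with Paraclu and counted reads with featureCounts (Subread 1.6.1). The deposited values are RPM, reads per 1000000 mapped reads. In 4 S16 libraries 467 TSSs, Ngfr among them, were deposited with 3 digits, so their reads are approximate. The deposited columns of log2 fold changes and adjusted p-values, which the authors computed with edgeR 3.24.3, were not used.

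The main test was limma 3.58.1 (R 4.3.3, empirical Bayes with trend) on log2(RPM + 1), keeping TSSs that exceeded 1 RPM in 2 or more of the libraries fitted, with Benjamini-Hochberg adjustment over all TSSs tested and a threshold of 0.05. Fold changes on this scale understate the change of low TSSs, and folds in the text are ratios of mean RPM. The nerve comparison was fitted with all S16 libraries, so its spread is pooled over nerve, parental cells and ΔSOX10 clones. TSS use was tested with diffSplice, and ratios and shares with exact permutation tests (two-sided). Read counts behind intervals and edgeR 4.0.16 and DESeq2 1.42.0 alternatives were recovered from RPM steps, with 93.2% to 100% of a library's values above 0 within 0.1 of a whole read. Intervals and limits cover counting error only, since the reads carry no molecular identifiers. The tests were checked on simulated data. Promoters came from RefSeq (GRCr8).

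Genes were named by a rule: both genes, Sox10, the 5 genes most alike to each TSS, and up to 4 called genes with the largest change per list and comparison, besides p75NTR partners and S100 genes. Cd81 and Cnp were named after their values were seen, for the places they hold. Some genes that the rule names are not reported here. Each gene of a list is represented by its TSS highest in nerve. The genes and the lists were chosen with earlier results of these data known. Alternatives changed the test, the scaling, the filter, the pseudocount, the libraries left out, the unit, the samples in the fit and the replicate block.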

Additional observations from a re-analysis of the deposited data

Results flagged for a closer look

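Gaps between samples were tested in the 4 ΔSOX10 clones, as the other groups hold 3 or fewer. The test covered Ngfr, S100b, their ratio and every list gene above 1 RPM in a clone. No clone stood apart at Ngfr or S100b, and 6 genes of the lists had a clone far from the others. Mal was at 1.35 RPM in clone 1-1 and at 0.0508 to 0.0855 in the other clones. Ndrg2 was at 1.11 RPM in clone 2-2 and at 0 in the others, and Pmp22 at 2.22 RPM in clone 2-2 and 0.178 to 0.381 in the others. Dhh was at 1.15 RPM in clone 1-1 and at most 0.0254 in the others. Gldn was at 1.53 RPM in clone 1-2 and 19.3 to 22.9 in the others, and Cnp at 35.6 RPM in clone 2-1 and 43.4 to 44.6 in the others. All lie below the parental values of these genes, and chance flags about 1 in 20 such groups. At Mal, Dhh and Ndrg2 the other clones lay at or below the floor of 3 reads.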

How the results depend on the processing

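Of 139 alternative values for the 8 differences of the Ngfr and S100b TSSs, 135 kept their direction and their side of the threshold, 4 kept the direction and lost the call, and 0 turned. The 4 were the main S100b TSS with cAMP by edgeR's exact test (−0.24, adjusted p = 0.0575) and with all 14 libraries in the fit (−0.25, p = 0.565), and the upstream one by edgeR's quasi-likelihood test (2.00, p = 0.0745) and without cAMP replicate 2 (1.97, p = 0.0605). The cause was not tested. Leaving out each library gave, with cAMP, −1.80 to −1.68 for Ngfr, −0.28 to −0.22 for the main and 1.42 to 2.63 for the upstream S100b TSS. In ΔSOX10 cells it gave −8.53 to −8.09 for Ngfr and −4.26 to −3.87 for the main S100b TSS, and against nerve 6.02 to 7.16, −3.57 to −3.27 and −3.71 to −2.48. With other settings Ngfr ranged from −9.22 to −6.94 in ΔSOX10 cells, and the upstream TSS from 1.26 to 2.55 with cAMP and from −4.86 (DESeq2) to −1.78 (pseudocount of 5 RPM) against nerve.

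S100b TSS use, whose alternatives other than the permutation test were chosen after seeing the data, was 2.80 with a pseudocount of 0.1 RPM (adjusted p = 0.135), 0.740 percentage points by the exact permutation test (p = 0.1), and 1.69 to 2.87 with a library left out (adjusted p from 0.00608 to 0.149). The log2 ratio of the genes moved between −1.59 and −1.42 with cAMP and between −4.52 and −4.15 in ΔSOX10 cells when a library was left out. In ΔSOX10 cells it was −5.06 and −3.39 with pseudocounts of 0.1 and 5 RPM.

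Counts of called TSSs moved by over 1.5 times as follows. Lower with cAMP, against 452, gave 269 with all 14 libraries. In ΔSOX10 cells, against 64 higher and 254 lower, 112 were higher by edgeR's exact test and 164 by DESeq2, 166 lower with a mean of at least 5 RPM and 165 per gene, and 28 to 36 higher and 71 to 74 lower without a parental library. Against nerve, with 1121 higher and 1074 lower, 648 were higher by median-ratio scaling, 713 by edgeR and 638 by DESeq2, 688 lower by edgeR, 268 lower with a mean of at least 5 RPM, 348 lower per gene, and 337 or 447 without nerve replicate 2 or 1.

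A library left alone in its group was assumed to vary like the other groups. With the TSS highest in the comparison standing for each gene, the myelin list with cAMP had 12 higher and 0 lower, the lineage list 1 higher and 1 lower, and in ΔSOX10 cells the lineage list had 6 lower.

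The replicate block gave −1.72 for Ngfr, −0.25 and 2.05 for the main and upstream S100b TSSs and 553 higher and 467 lower TSSs against 530 and 452, and changed no call of a member. The labels do not pair control and cAMP samples beyond a shared number. Same-numbered samples deviated together with correlations of 0.0294, 0.00751 and 0.0379, and the other pairs had −0.0510 to 0.0213. Such small values from so few libraries cannot show whether the samples were paired. With 1 line and 2 libraries, S16 precision is limited, and 0 reads in a clone allow up to 0.0763 to 0.0855 RPM.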
